A study of Mus musculus with 12 samples.

Results

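Progenitor cells that carried a mutant Dnmt3a allele and came from metformin-treated mice (RH MET) were compared, across all genes, with wild-type cells from vehicle-treated mice (WT VEH). The comparison asks how much the RNA profile of treated mutant cells differed from the untreated wild-type one. It used 6 of the 12 libraries in the deposited count table, 3 per group, and 14294 of the table's 54532 genes had enough counts to be tested. The 3 RH MET and 3 WT VEH libraries were chosen by their labels, not by any measured value.

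Bulk RNA sequencing was done on lineage-negative, cKit-positive cells, which hold the haematopoietic stem and progenitor cells of the marrow, sorted fresh without a culture step. RH MET cells came from C57BL/6 mice with a heterozygous Dnmt3afl-R878H allele that had been crossed with Mx1-cre mice, and the mice had received metformin for 1 month. RH VEH mice had the same genotype and received vehicle. WT MET mice were Dnmt3a+/+, crossed with the same Mx1-cre line and given metformin, and WT VEH mice were Dnmt3a+/+ Mx1-cre mice given vehicle. All 4 groups therefore shared the Mx1-cre transgene, whose promoter is interferon-responsive. Neither the induction of Cre nor the age of the mice is stated in the labels. The labels describe a competition experiment in living mice and give 2 animals for each treatment. They do not say which animal a library came from, so the tests weigh differences against the spread among libraries, and that spread can be technical in part. RH MET and WT VEH differ in both genotype and drug, and in these 6 libraries the part of each cannot be told apart.

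DNMT3A places methyl groups on unmethylated DNA, and the mouse R878H change corresponds to the most frequent hotspot of DNMT3A mutation in human clonal haematopoiesis and acute myeloid leukaemia. Metformin is a biguanide used against type 2 diabetes that inhibits complex I of the respiratory chain. Immediate early genes, such as the NR4A, EGR, FOS and JUN families, encode mostly transcription factors that cells switch on within minutes of a stimulus, without new protein synthesis.

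Total counts were 16963830 to 21938003 in RH MET and 17877170 to 19420425 in WT VEH, and 1 CPM (counts scaled to library size with TMM factors) stood for 18.1 to 24.8 reads in these 6 libraries. Within each group, libraries 1 and 2 were also in a smaller deposited table (round 1) and library 3 was in the table of 12 only (round 2). The mitochondrial genome took 2.59% ± 0.390 of counts in RH MET and 2.13% ± 0.560 in WT VEH (SD, n = 3 each), a difference within the spread (two-sided exact permutation p = 0.4, with 0.1 the smallest possible). By contrast, 1 library of RH VEH held 40.8% and 1 of WT MET 33.3% mitochondrial counts. Dnmt3a was at 45.3, 49.2 and 52.2 CPM in RH MET, against 41.8, 43.2 and 57.4 CPM in WT VEH, and a heterozygous point mutation leaves no mark on this level by which the genotype could be checked. The groups overlapped, at a log2 fold change of 0.05 ± 0.131 (SE).

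Few genes separated treated mutant from untreated wild-type cells. The orphan nuclear receptor genes Nr4a1 and Nr4a3, the transcription factor genes Bhlhe40 and Irf1, the Notch ligand gene Jag2, the cytoskeleton genes Eps8l1 and Ahnak and the immunoglobulin segment Igkv1-122 fell in RH MET. The peptide transporter gene Slc15a2 rose. These 9 genes, 1 higher and 8 lower, were 0.063% of the genes tested (0.007% higher and 0.056% lower) and passed a Benjamini-Hochberg adjusted p of 0.05 in edgeR's quasi-likelihood test with round as a term; genes that pass are called below. Gene coordinates are those of the deposited table, on mm10. There were 719 genes, 5.03% of those tested, with an unadjusted p under 0.05, and 1093, or 7.65%, whose groups did not overlap.

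**Figure D1:**
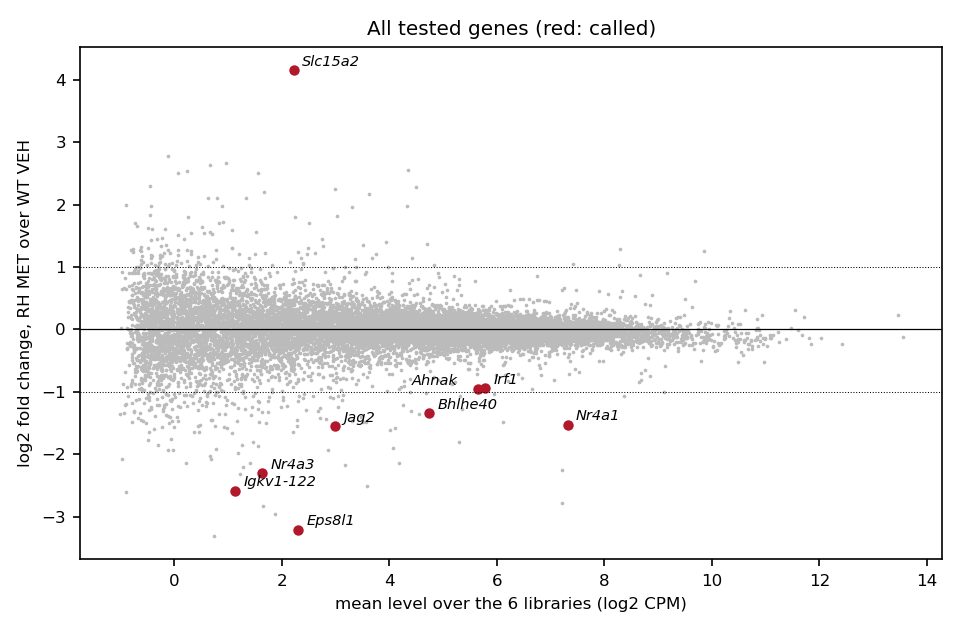
Log2 fold change of RH MET over WT VEH (vertical axis) against the mean level over the 6 libraries in log2 CPM (horizontal axis) for the 14294 tested genes; red points are the 9 called genes and dotted lines mark 1 log2 unit either side of 0. Slc15a2 stands alone above at 4.16, the other 8 lie between −0.94 and −3.21, and the cloud narrows as the level increases.

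The count of calls depended on which libraries and which model entered. With the replicate number as a block, 49 genes passed, 8 higher and 41 lower, among them all 9. The difference between numbers 1 and 2 had an r of 0.01 between the groups, which gives no ground for pairing beyond round. In a fit of all 12 libraries, the 2 of high mitochondrial share included, the biological coefficient of variation was 0.256, against 0.179 for the 6. There 0 genes passed by edgeR and 389 had an unadjusted p under 0.05. DESeq2 on the 6 libraries called 77 genes, 0.567% of the 13584 it gave an adjusted p, the same 9 included. Nr4a1 kept its call in 15 of 16 alternative fits, all but the fit of 12 libraries (edgeR adjusted p = 0.577), and the other 8 genes kept theirs in 8 to 11. Without RH MET 3 or without WT VEH 3, which leaves the round 2 library of the other group unpaired, Nr4a1 alone of the 9 was called (edgeR adjusted p = 0.0394 and 0.0376). Without RH MET 2, the edgeR adjusted p was 0.0557 for Bhlhe40, 0.0601 for Igkv1-122, 0.0815 for Nr4a3, 0.126 for Jag2, 0.141 for Ahnak and 0.202 for Irf1. Without RH MET 1 it was 0.0585 for Irf1 and 0.0534 for Ahnak, and 19 genes were called. Without WT VEH 1, 27 genes were called, and without WT VEH 2, 28; all 9 were among both. No direction changed in any of these fits.

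Nr4a1 (chr15:101254269-101274795, plus strand) encodes a nuclear receptor that acts without a known natural ligand and is induced by many stimuli, including antigen receptor and cAMP signalling. Its level was 81.7, 76.6 and 68.9 CPM in RH MET, against 242, 218 and 192 CPM in WT VEH. All 3 RH MET libraries lay far below the lowest WT VEH library. The log2 fold change was −1.52 ± 0.115 (SE, n = 3 per group; edgeR adjusted p = 0.000507), with −1.54 in round 1 and −1.48 in round 2 as differences of log2 CPM. The other groups lay mostly between, at 174, 63.8 and 128 CPM in RH VEH and 196, 160 and 95.5 CPM in WT MET. RH VEH 2, the library with 40.8% mitochondrial counts, was the one library below all of RH MET.

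Nr4a3 (chr4:48045153-48086447, plus strand) encodes another member of the family; in mice, loss of Nr4a1 and Nr4a3 together leads to acute myeloid leukaemia. It was a low-level transcript, with 1.04, 0.971 and 0.765 CPM in RH MET (58 counts in all) and 6.29, 4.19 and 3.44 CPM in WT VEH (271 counts). The groups were fully apart, at a log2 fold change of −2.31 ± 0.311 (edgeR adjusted p = 0.029). RH VEH libraries had 1.54, 1.08 and 1.28 CPM, close to RH MET, and WT MET libraries had 4.42, 0.913 and 0.644 CPM. The third member, Nr4a2, was at 25.9, 23.2 and 10.3 CPM in RH MET and 38.9, 36.2 and 21.7 CPM in WT VEH. It was not called (−0.77 ± 0.156; edgeR adjusted p = 0.173).

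Bhlhe40 (chr6:108660629-108666925, plus strand) encodes a basic helix-loop-helix repressor that responds to hypoxia, circadian and immune signals. It was at 17.3, 12.9 and 11.6 CPM in RH MET, against 40.4, 33.8 and 31.2 CPM in WT VEH, with no overlap. The log2 fold change was −1.34 ± 0.164 (edgeR adjusted p = 0.0162), alike in round 1 (−1.30) and round 2 (−1.41). It was the 1 called member of the 22 tested hypoxia genes, whose median log2 fold change was −0.07.

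Irf1 (chr11:53770014-53778374, plus strand) encodes an interferon-induced transcription factor that drives genes of antiviral defence and antigen presentation. It stood at 39.3, 33.1 and 31.4 CPM in RH MET and 76.3, 70.6 and 52.9 CPM in WT VEH. The highest RH MET library was below the lowest WT VEH library, and the log2 fold change was −0.94 ± 0.133 (edgeR adjusted p = 0.034). The 33 tested interferon-stimulated genes, which include targets of such factors, divided evenly, with 17 higher and 16 lower, a median of 0.01 and none called.

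Promoter sequences of the called genes Nr4a1, Nr4a3 and Irf1 and of Nfkbia, the inhibitor gene whose adjusted p was just above the threshold, are shown because these genes belong to pathways with well-known DNA motifs. Each runs from 250 bases before to 50 bases after the start of the RefSeq gene (GRCm38.p6, the assembly of mm10) and is read 5′ to 3′ on the gene's strand. Capitals mark the core TGACG of the cAMP response element, searched on both strands (CGTCA on the other), and the NF-kB consensus, searched likewise. The full element holds this core on each strand and then counts as overlapping matches. The Nr4a1 window (chr15:101266596-101266895, plus strand) lies inside the gene as the count table gives it, with its start of transcription 12577 bases from the start of that gene.
Nr4a1: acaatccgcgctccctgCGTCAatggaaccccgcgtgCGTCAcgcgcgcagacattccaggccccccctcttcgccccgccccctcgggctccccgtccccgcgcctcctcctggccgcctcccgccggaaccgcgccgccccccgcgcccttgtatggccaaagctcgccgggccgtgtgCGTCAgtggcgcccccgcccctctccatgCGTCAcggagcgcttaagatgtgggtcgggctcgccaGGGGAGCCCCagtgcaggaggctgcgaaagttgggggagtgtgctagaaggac
Nr4a3, at chr4:48045055-48045354 on the plus strand: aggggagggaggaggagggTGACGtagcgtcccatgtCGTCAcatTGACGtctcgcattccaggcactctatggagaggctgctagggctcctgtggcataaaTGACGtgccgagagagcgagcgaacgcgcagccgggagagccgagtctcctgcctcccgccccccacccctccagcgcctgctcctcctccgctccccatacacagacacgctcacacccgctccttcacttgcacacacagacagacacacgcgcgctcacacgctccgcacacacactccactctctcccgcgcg
Irf1, at chr11:53769764-53770063 on the plus strand: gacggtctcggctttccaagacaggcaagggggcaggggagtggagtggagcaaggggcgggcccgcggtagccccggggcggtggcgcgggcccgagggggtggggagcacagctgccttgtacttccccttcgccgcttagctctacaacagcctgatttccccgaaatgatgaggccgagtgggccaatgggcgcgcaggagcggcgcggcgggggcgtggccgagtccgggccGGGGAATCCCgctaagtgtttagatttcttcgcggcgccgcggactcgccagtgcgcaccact
Nfkbia, at chr12:55492598-55492897 on the minus strand: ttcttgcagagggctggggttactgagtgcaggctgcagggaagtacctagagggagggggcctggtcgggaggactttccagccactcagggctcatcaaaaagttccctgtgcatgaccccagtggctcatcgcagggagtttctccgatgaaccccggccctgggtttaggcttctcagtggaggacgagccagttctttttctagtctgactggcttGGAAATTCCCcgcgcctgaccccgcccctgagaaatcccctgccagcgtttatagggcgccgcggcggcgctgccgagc
The Nr4a1 and Nr4a3 windows held 4 cores each, and 4 or more were found in 0.317% of 20482 RefSeq promoters of the same length and in 0.597% of those of tested genes. The cutoff of 4 is the number held by these windows, so the shares are a description and no test. At least 1 core was in 22.9% of the 20482. The Nr4a1, Irf1 and Nfkbia windows held 1 NF-kB consensus each, against 8.77% of all these promoters. Among list members with a window, 14 of 24 immediate early genes held the core and 12 of 24 NF-kB genes the NF-kB consensus; in the promoters of the 10050 tested genes matched, the shares were 32.0% and 10.03%. Of the 9 called genes, 7 had a window, all but Bhlhe40 and Igkv1-122. The core was in 4 of the 7 and the NF-kB consensus in 2, and the Jag2 and Ahnak windows held neither. These matches describe letters in the window and say nothing about binding.

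**Figure D2:**
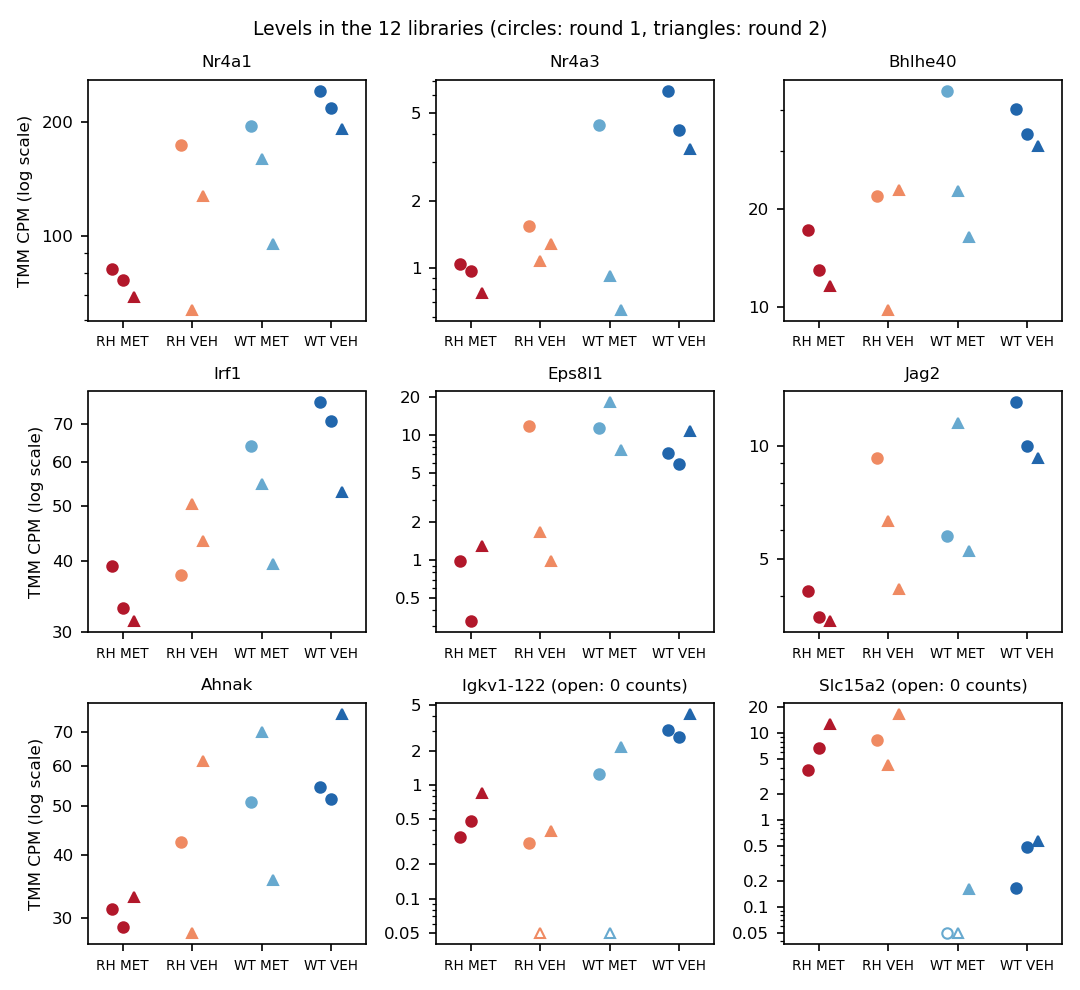
TMM CPM on a log axis of the 9 called genes in each library of RH MET, RH VEH, WT MET and WT VEH; circles are round 1, triangles round 2, and open symbols are libraries with 0 counts, drawn at the bottom of the axis. RH MET and WT VEH do not overlap in any of the 9 panels, while RH VEH and WT MET spread between or across them, and Slc15a2 is high in both RH groups.

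Jag2 (chr12:112907819-112929776, minus strand) encodes a ligand of Notch receptors. It had 4.12, 3.51 and 3.42 CPM in RH MET and 13.1, 9.997 and 9.29 CPM in WT VEH, with no overlap, at a log2 fold change of −1.55 ± 0.216 (edgeR adjusted p = 0.034). Ahnak (chr19:8989284-9076919, plus strand) encodes a very large scaffold protein at the cell membrane. It was at 31.3, 28.9 and 33.1 CPM in RH MET, against 54.5, 51.6 and 76.0 CPM in WT VEH, at −0.95 ± 0.138 (edgeR adjusted p = 0.0387). For both genes the RH MET libraries lay closer together than those of WT VEH.

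Eps8l1 (chr7:4460674-4480487, plus strand), a relative of the actin regulator gene Eps8, had the largest fall of the called genes. Its RH MET libraries had 0.992, 0.324 and 1.29 CPM (58 counts in all), and its WT VEH libraries 7.23, 5.85 and 10.8 CPM (475 counts). The log2 fold change was −3.21 ± 0.347 (edgeR adjusted p = 0.00673). Of the other groups, WT MET was high throughout at 11.3, 18.2 and 7.52 CPM, and RH VEH was mixed, with 11.7 CPM in library 1 but 1.67 and 0.984 CPM in libraries 2 and 3. In the fit without the 2 libraries of high mitochondrial share, which keeps RH VEH 1, its edgeR adjusted p was 0.712.

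Igkv1-122 (chr6:68016718-68017488, plus strand), a variable segment of the immunoglobulin kappa light chain, was outside the rule for naming genes and is given to complete the 9. It had 0.347, 0.485 and 0.845 CPM in RH MET and 3.04, 2.63 and 4.21 CPM in WT VEH, or 37 counts in all of RH MET and 196 in all of WT VEH. The log2 fold change was −2.58 ± 0.349 (edgeR adjusted p = 0.029). Reads of near-identical kappa segments can be split or lost in counting, so this level is uncertain. RH VEH libraries were as low, at 0.308, 0 and 0.394 CPM. WT MET libraries held 61 counts in all, from 0 to 40 in a library. The markers of the B lineage as a whole, 27 tested genes, had a median of −0.26 with 0 called. Of the 27, 22 were lower in RH MET, against 51.7% of all tested genes. The summed level of the markers overlapped between the groups (3728 to 5968 CPM in RH MET and 3982 to 5117 CPM in WT VEH). The part of B lineage cells in the Igkv1-122 result was not tested.

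Slc15a2 (chr16:36750177-36784962, minus strand) encodes a proton-coupled transporter of di- and tripeptides, known from kidney and brain. It was at 3.82, 6.74 and 12.9 CPM in RH MET, against 0.166, 0.488 and 0.581 CPM in WT VEH, where it rested on 3, 10 and 12 counts. The lowest RH MET library was several times above the highest WT VEH library, at a log2 fold change of 4.16 ± 0.398 (edgeR adjusted p = 0.00295). RH VEH libraries were as high as RH MET, at 8.25, 4.30 and 16.7 CPM. WT MET libraries were as low as WT VEH, at 0, 0 and 0.161 CPM, or 3 counts in all. The fitted log2 difference of RH MET from RH VEH was −0.17 in the 12-library fit and not called. Of the other peptide transporter genes, Slc15a3 (−0.40) and Slc15a4 (−0.04) were tested and not called.

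Most immediate early genes had lower fitted levels in RH MET. Of 30 tested members, 25 were lower and 5 higher, with a median log2 fold change of −0.47, against −0.01 over all 14294 genes, of which 7385 were lower. Of the 30 members, Nr4a1 and Nr4a3 were called. With the replicate block 6 members were, Junb, Dusp5, Klf10 and Fosl2 in addition, all lower in RH MET, among 49 of all 14294 genes. DESeq2 called 9 members (77 of 13584 genes in all) and the unfiltered fit 13 (172 of 25856). An unadjusted p under 0.05 with a lower level was found for 16 members, and for 2.85% of all tested genes. The libraries of the groups did not overlap, with RH MET lower, for 11 members and for 3.54% of all tested genes. The list's median differed between rounds, at −0.23 in round 1 and −0.94 in round 2, so the single pair of round 2 libraries had the wider gap.

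The members are given by family, with no test between families. All 3 EGR genes had a negative fold change, from −0.59 for Egr1 to −1.10 for Egr3, and none was called. Egr1, a zinc finger factor induced by growth signals, stood at 495, 436 and 315 CPM in RH MET and 414, 732 and 708 CPM in WT VEH, so WT VEH 1 lay inside the RH MET range. Junb, a subunit of the AP-1 factor that restrains myeloid proliferation in mice, was at 339, 304 and 301 CPM in RH MET and 573, 429 and 582 CPM in WT VEH. Its groups did not overlap and its log2 fold change was −0.75 ± 0.148, but it was not called (edgeR adjusted p = 0.162). Ier2, an early gene of unclear molecular role, had a similar pattern, at 314, 314 and 305 CPM in RH MET and 550, 440 and 471 CPM in WT VEH (−0.65 ± 0.128; edgeR adjusted p = 0.162).

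The 5 members with a higher fitted level were Fos, Dusp1, Dusp2, Dusp6 and Myc. Fos, the partner of the JUN proteins in AP-1, was at 849, 945 and 1240 CPM in RH MET and 642, 1000 and 1310 CPM in WT VEH, with full overlap and a log2 fold change of 0.05 ± 0.174. The DUSP genes encode phosphatases that switch off MAP kinases, and 3 of the 4 tested lay at 0.14 to 0.15. The fourth, Dusp5, was at 43.0, 41.6 and 27.7 CPM in RH MET, against 84.8, 66.6 and 74.1 CPM in WT VEH, and was just outside the threshold (−1.04 ± 0.161; edgeR adjusted p = 0.0502). Myc, the growth factor-responsive transcription factor gene, had a fold change of 0.43 ± 0.145 and was not called (edgeR adjusted p = 0.715).

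**Figure D3:**
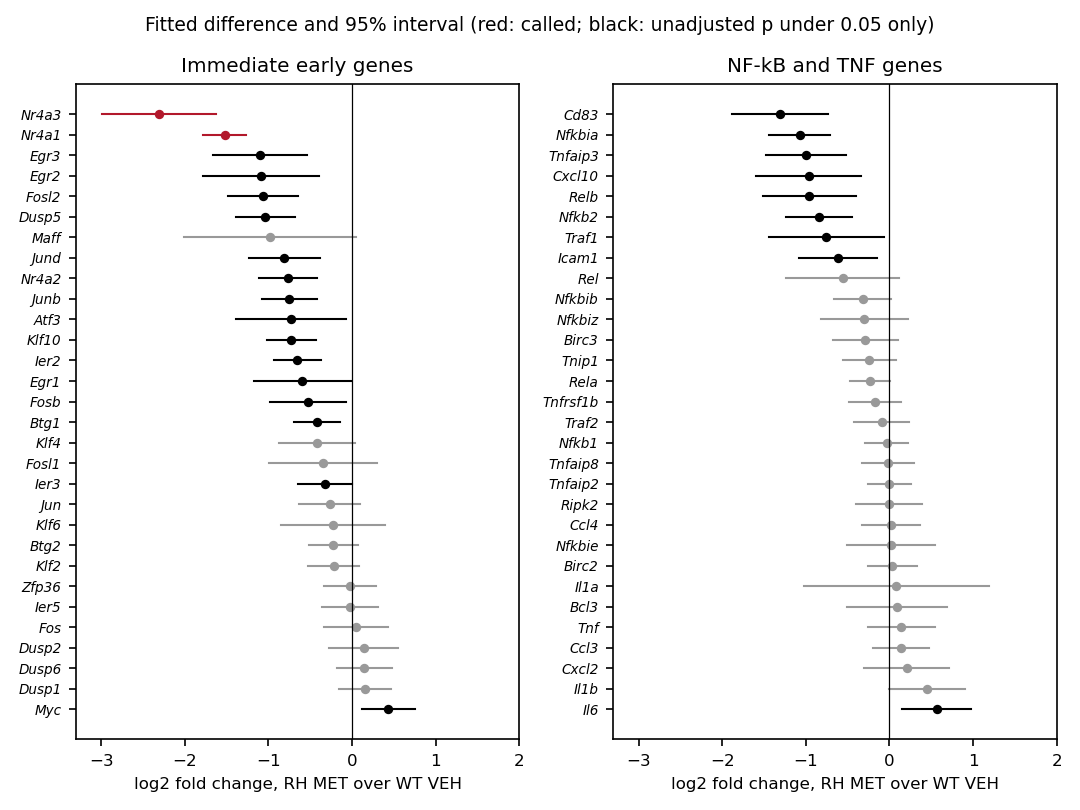
Fitted log2 fold change of RH MET over WT VEH with its 95% interval for the tested immediate early genes (left) and the tested NF-kB and TNF genes (right); red marks called genes, black an unadjusted p under 0.05 only, grey the rest. Of 30 immediate early genes 25 lie left of 0, while 19 of 30 NF-kB and TNF genes do, with Cd83 and Nfkbia furthest left.

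Genes of the NF-kB and TNF response showed a divided pattern. NF-kB factors are held in the cytoplasm by inhibitors such as the product of Nfkbia, which NF-kB itself induces. Of 30 tested members, 19 were lower and 11 higher, with a median of −0.13 and none called by edgeR. The median was −0.06 without RH MET 3, and also −0.06 without WT VEH 3. With the replicate block 3 members were called, Nfkbia, Cd83 and Nfkb2, all lower in RH MET, among 49 of all 14294 genes. DESeq2 called 4 members (77 of 13584 genes in all) and the unfiltered fit 6 (172 of 25856). RLE size factors, limma-trend and the fit without mitochondrial genome genes called 1 member each, among 16, 17 and 16 genes in all. At an unadjusted p under 0.05, 8 members were lower, as were 2.85% of all tested genes. Nfkbia was at 285, 204 and 115 CPM in RH MET and 500, 415 and 301 CPM in WT VEH, without overlap, at −1.07 ± 0.167 (edgeR adjusted p = 0.0502). Cd83, which encodes a surface protein of activated antigen-presenting cells, was at 3.72, 3.24 and 3.06 CPM in RH MET and 11.8, 6.83 and 6.43 CPM in WT VEH (−1.31 ± 0.263; edgeR adjusted p = 0.173). For both genes all RH MET libraries lay below all WT VEH libraries.

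The other members are given by role. The inhibitory ubiquitin-editing enzyme gene Tnfaip3 had −0.997 ± 0.212, the subunit genes Nfkb2 and Relb −0.84 ± 0.179 and −0.96 ± 0.255, and none was called. The subunit genes Nfkb1 (−0.03 ± 0.115) and Rela (−0.23 ± 0.110) lay closer to 0. The cytokine genes Tnf (0.14 ± 0.183), Il1b (0.45 ± 0.206) and Il6 (0.57 ± 0.187) had positive values, also not called. A test of a difference between these subgroups was not made.

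Several further genes lay directly outside the threshold, all with lower levels in RH MET and an edgeR adjusted p of 0.0502. Ablim1, which encodes an actin-binding protein, was at 3.17, 4.85 and 8.77 CPM in RH MET and 12.5, 9.75 and 21.3 CPM in WT VEH (−1.41 ± 0.217). Csrnp1, a nuclear protein gene induced by AXIN1 in human cells, was at 39.7, 32.1 and 27.2 CPM in RH MET and 79.0, 59.5 and 82.2 CPM in WT VEH (−1.17 ± 0.179). Ppp1r15a, which encodes the phosphatase subunit that ends the translational arrest of the stress response, was at 318, 264 and 205 CPM in RH MET and 587, 489 and 339 CPM in WT VEH (−0.84 ± 0.133). In each of these the groups did not overlap, which the rule for naming genes required of Ablim1 and Csrnp1. The 27 tested ATF4 stress response genes, Ppp1r15a among them, had a median of 0.01 and none was called.

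On the higher side Slc15a2 was the 1 call, and genes of next smallest p are given as values. The rule for naming took them only from genes whose groups did not overlap and whose sign was the same in both rounds. Mat2a, which makes the methyl donor S-adenosylmethionine, was at 322, 308 and 252 CPM in RH MET and 186, 214 and 192 CPM in WT VEH. All RH MET libraries lay above all WT VEH libraries, at 0.56 ± 0.123, and the gene was not called (edgeR adjusted p = 0.238). Id1, an inhibitor of basic helix-loop-helix factors induced by BMP signals, was at 7.78, 9.60 and 8.41 CPM in RH MET and 2.32, 2.83 and 5.61 CPM in WT VEH (1.34 ± 0.287; edgeR adjusted p = 0.232). WT VEH 3 lay nearest to RH MET.

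Mycn, a MYC family factor gene, was at 10.3, 9.49 and 11.6 CPM in RH MET and 5.57, 6.29 and 5.52 CPM in WT VEH (0.84 ± 0.196). Its level varied widely in the other groups, at 11.2 ± 7.16 CPM in RH VEH and 14.4 ± 7.83 CPM in WT MET (SD, n = 3 each). Dnah8, a dynein heavy chain gene, was at 59.6, 38.8 and 39.9 CPM in RH MET and 23.6, 33.5 and 21.6 CPM in WT VEH (0.81 ± 0.188). The remaining genes named by the rule on this side, Tfpi, Lhfpl2, B3gat2, Mpp7 and Sat1, had fold changes of 0.48 to 1.22. The lack of overlap between their groups was a condition of that rule. Groups did not overlap, with RH MET higher, for 587 genes, or 4.11% of those tested.

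The genes that define the sorted compartment lay close to their wild-type level. Kit, the receptor of stem cell factor used in the sort, was at 150, 174 and 159 CPM in RH MET and 118, 177 and 200 CPM in WT VEH (−0.03 ± 0.170). Ly6a, which encodes Sca-1, was at 4.71, 4.32 and 8.94 CPM in RH MET and 8.28, 5.27 and 8.42 CPM in WT VEH (−0.36 ± 0.249). All 14 progenitor identity genes, which include the transcription factor genes Runx1, Tal1 and Gata2, had a 95% interval inside 1 log2 unit either side of 0. So did 76.7% of all tested genes, and 98.6% of those at a mean log2 CPM of 5 or more. The median of the 14 was −0.04, and 11 of them were lower, against 51.7% of all tested genes. Runx1 was the 1 member whose groups did not overlap (−0.22 ± 0.124), with RH MET lower, as for 3.54% of all tested genes. The 32 tested stem cell genes had a median of −0.03, from −0.89 to 0.84, with 26 intervals inside that range. None of either list was called, which does not show that the levels were equal.

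Genes of DNA methylation and of the one-carbon cycle, which supplies its methyl groups, were measured next to these. Among 18 tested genes of the methylation machinery the median was 0.03, 17 intervals lay inside 1 log2 unit and none was called. Dnmt1, the maintenance methyltransferase gene, had −0.12 ± 0.128, Dnmt3b 0.01 ± 0.178 and the demethylase gene Tet2 0.19 ± 0.205. The member of smallest p was Gadd45b, a stress-induced gene linked to demethylation, at −0.72 ± 0.199 (edgeR adjusted p = 0.457). All 27 one-carbon and methionine genes had intervals inside 1 log2 unit, with a median of 0.03. Over all tested genes, 76.7% of intervals lay inside that range, and 98.6% at a mean log2 CPM of 5 or more. The 12 tested PRC2 genes (median −0.04) and 17 Hox and Meis genes (median 0.02) had no called member.

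The respiratory chain, the target of metformin, had no called member. Of 37 nuclear genes of complex I, 29 were lower and 8 higher, with a median of −0.10, which was −0.17 in round 1 and 0.19 in round 2. Of 40 genes of complexes II to V, 31 were lower, with a median of −0.07, which was −0.15 in round 1 and 0.15 in round 2. WT VEH 1 stood apart in both lists. For complex I the summed level was 2507 to 2723 CPM in RH MET, against 3872 CPM in WT VEH 1 and 2511 and 2254 CPM in WT VEH 2 and 3. For complexes II to V it was 8735 to 9718 CPM in RH MET, against 12790 CPM in WT VEH 1 and 9272 and 8091 CPM in WT VEH 2 and 3. Without WT VEH 1 the medians had the opposite sign, at 0.14 for complex I, 0.12 for complexes II to V and 0.05 for the cytosolic ribosome. All 12 tested protein-coding genes of the mitochondrial genome were higher, with a median of 0.22, 0.11 in round 1 and 0.54 in round 2. Genes of the cytosolic ribosome were lower for 74 of 77 members, with a median of −0.16, but −0.25 in round 1 and 0.06 in round 2; WT VEH 1 stood apart here too, with a summed level of 110190 CPM, against 74860 to 76878 CPM in RH MET and 74586 and 72736 CPM in WT VEH 2 and 3. None of these genes was called. The AMPK and mTOR list (31 genes, median −0.04) and the glycolysis list (24 tested entries from 23 gene names, median −0.03) had no called member either.

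**Figure D4:**
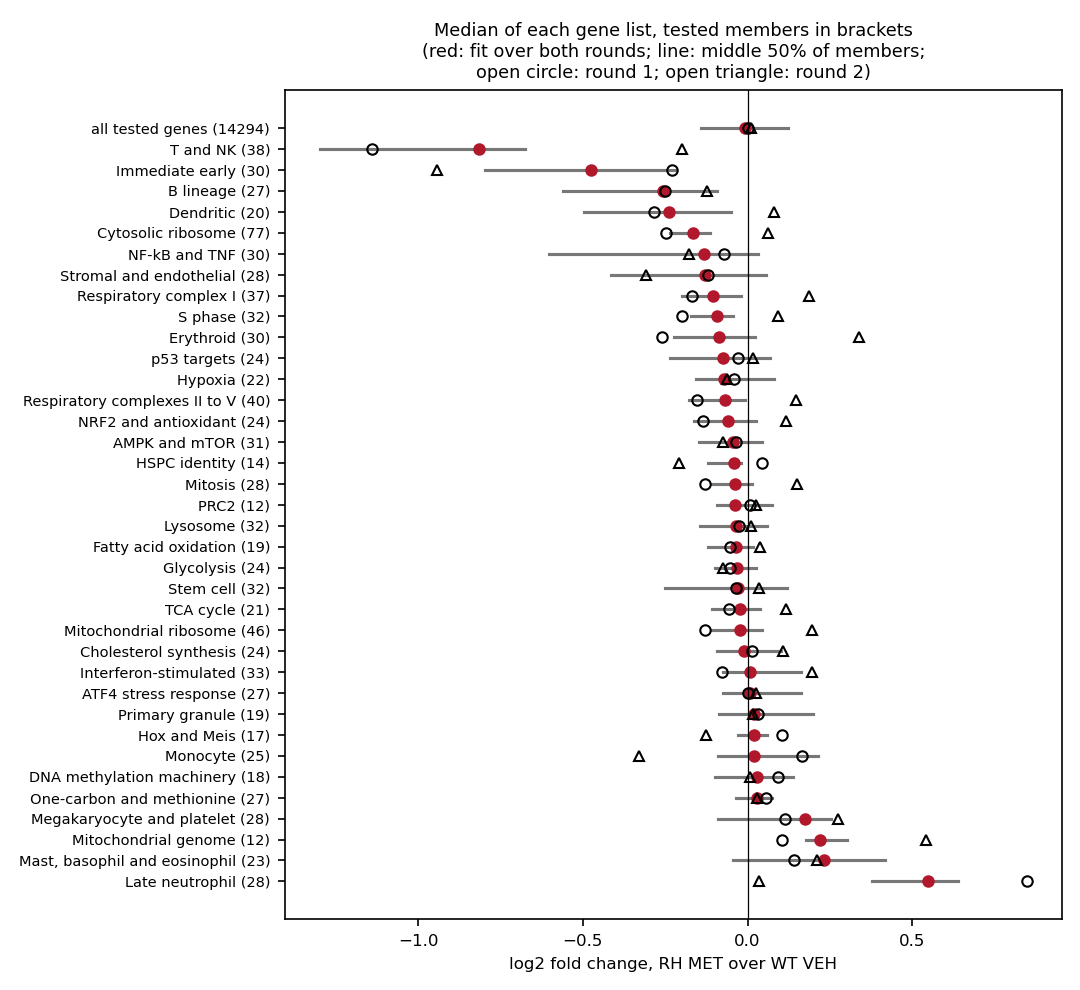
Median log2 fold change of RH MET over WT VEH for each gene list (rows, with the number of tested members) from the fit over both rounds (red, with a line over the middle 50% of members), in round 1 (open circle) and in round 2 (open triangle). T and NK genes (−0.82), immediate early genes (−0.47) and late neutrophil genes (0.55) lie furthest from the median of all tested genes, and each of the 3 differs in size between the rounds.

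Markers of other cell types varied between libraries. The sort was for lineage-negative cells, yet transcripts of all 38 T and NK cell genes on the list passed the count filter. Of these, 35 were lower in RH MET, 18 of them at an unadjusted p under 0.05 (2.85% of all tested genes were lower at that p), with a median of −0.82 and none called. Their summed level was 123, 133 and 232 CPM in RH MET and 279, 186 and 249 CPM in WT VEH, so RH MET 3 lay inside the WT VEH range, and the median was −1.14 in round 1 and −0.20 in round 2. In bulk RNA, fewer cells of a type and less RNA per cell cannot be told apart. Il2rb, a receptor subunit of T and NK cells, was at 7.14, 8.25 and 20.6 CPM in RH MET and 30.7, 21.4 and 28.3 CPM in WT VEH (−1.31 ± 0.269; edgeR adjusted p = 0.232). The T cell receptor component Cd3e had −1.001 ± 0.529 and Cd4 0.42 ± 0.432. In round 1 the differences of log2 CPM were −1.54 for Nr4a1, −2.23 for Nr4a3, −1.30 for Bhlhe40 and −1.02 for Irf1. In round 2, a single pair of libraries, they were −1.48, −2.02, −1.41 and −0.75. Members of the T and NK list varied in round 2, with −0.46 for Il2rb and −1.42 for Eomes. Nr4a1, Nr4a3, Bhlhe40 and Irf1 are also expressed by activated lymphocytes, and the part of such cells in their lower levels was not tested.

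Late neutrophil genes had the opposite sign, with 27 of 28 higher in RH MET, 19 of these at an unadjusted p under 0.05 (2.18% of all tested genes were higher at that p) and none called. Their summed level was 3850, 3902 and 5878 CPM in RH MET and 1809, 2246 and 5956 CPM in WT VEH. WT VEH 3 was thus as high as RH MET 3, and the median of 0.55 divided into 0.85 in round 1 and 0.03 in round 2. S100a8, which encodes a calcium-binding protein abundant in neutrophils, had 0.91 ± 0.246 (edgeR adjusted p = 0.510). Il1r2, the decoy receptor of interleukin 1, was the 1 member with a lower level, at 4.17, 3.72 and 5.43 CPM in RH MET and 7.23, 6.34 and 12.2 CPM in WT VEH (−0.92 ± 0.218; edgeR adjusted p = 0.303). Genes of the earlier primary granules, 19 tested, had a median of 0.02. Erythroid (30 genes, median −0.09), megakaryocyte and platelet (28, 0.17), mast, basophil and eosinophil (23, 0.23), monocyte (25, 0.02), dendritic (20, −0.24) and stromal and endothelial genes (28, −0.13) had no called member.

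The width of the intervals shows how far each gene was bounded. For 10964 genes, or 76.7%, the 95% interval of the fold change lay inside 1 log2 unit either side of 0. The share was 43.7% with no filter on low counts and 40.9% by DESeq2, which was also run without that filter. Both of these shares are over 25856 genes, with more low ones, and are not like for like with the 76.7%. The share depended on level, with 98.6% of the 6032 genes at a mean log2 CPM of 5 or more, 94.5% of the 3354 between 3 and 5, 66.2% of the 2425 between 1 and 3, and 9.79% of the 2483 under 1. The median size of the fold change was 0.13. A fitted fold change beyond 1 log2 unit was found for 321 genes, of which 190 had a mean log2 CPM under 1 and 14 one of 5 or more.

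The distance between libraries gave the same comparison without a test. As the root mean square difference of log2 CPM over the tested genes, the 9 pairs of an RH MET and a WT VEH library lay 0.463 to 0.672 apart, with a median of 0.601. Pairs within RH MET lay 0.441 to 0.567 apart and pairs within WT VEH 0.604 to 0.687. The WT VEH libraries were therefore as far from each other as from RH MET libraries, and the median between the groups was 1.03 times that within them. That ratio mixes pairs of the same round with pairs of different rounds. Of the 5 between-group pairs of the same round, the median was 0.515, and of the 4 pairs of different rounds 0.623. Within the groups, the same-round pair lay 0.441 apart in RH MET and 0.604 apart in WT VEH. Pairs of different rounds lay 0.550 to 0.567 apart within RH MET and 0.654 to 0.687 within WT VEH. RH VEH libraries lay 0.431 to 1.10 from WT VEH (median 0.694) and WT MET libraries 0.498 to 0.976 (median 0.622); both ranges include a library of high mitochondrial share.

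**Figure D5:**
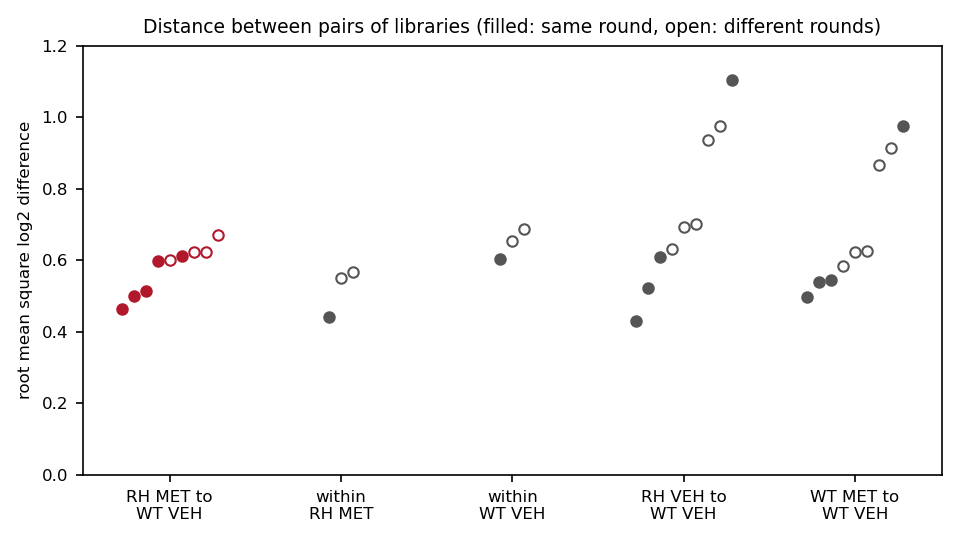
Root mean square log2 difference over the tested genes for each pair of libraries, for RH MET to WT VEH (red), within RH MET, within WT VEH, RH VEH to WT VEH and WT MET to WT VEH; filled points are pairs of the same round and open points pairs of different rounds. The 9 RH MET to WT VEH pairs (0.463 to 0.672) overlap the range of the pairs within each group, and the widest pairs are those with RH VEH or WT MET.

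The other comparisons among the 4 groups share libraries with this one, so their values are set side by side only. On the 6 libraries of each pair, edgeR called 0 genes for RH MET against RH VEH, RH MET against WT MET, RH VEH against WT VEH and WT MET against WT VEH, with 220, 1050, 164 and 375 genes at an unadjusted p under 0.05. The biological coefficient of variation was 0.179 for RH MET with WT VEH and 0.223 to 0.288 for these 4 pairs, each of which holds 1 library of high mitochondrial share. In the 12-library fit, Nr4a1 had a log2 fold change of −1.52 for RH MET, −0.72 for RH VEH and −0.40 for WT MET, each against WT VEH. Nr4a3 had −2.29 for RH MET, −1.49 for RH VEH and −1.14 for WT MET. Bhlhe40 had −1.34 for RH MET, −0.76 for RH VEH and −0.21 for WT MET. For Irf1 the values were −0.94 for RH MET, −0.51 for RH VEH and −0.27 for WT MET. Jag2 had −1.54, −0.65 and −0.44 in the same order, and Ahnak −0.95, −0.51 and −0.27. Eps8l1 had −3.17 for RH MET and −0.78 for RH VEH, but 0.70 for WT MET. Slc15a2 had 4.15 for RH MET, 4.32 for RH VEH and −2.85 for WT MET, where it rested on 3 counts in all. The SEs of these fold changes ran from 0.19 to 0.99, and RH VEH and WT MET each hold 1 library of high mitochondrial share. None of these fold changes was called in that fit. The 1 call of the 4 other comparisons there (0.00667% of 15003 genes) was Slc15a2 in RH MET against WT MET (edgeR adjusted p = 0.0255). Whether the 3 groups differ in their distance from WT VEH was not tested.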

How the data were processed

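The authors deposited unnormalised whole-number counts of reads per gene, in a table of 12 libraries and a smaller one of 8 columns. The smaller table repeated 6 columns with equal counts; its remaining 2 fitted no labelled sample and were left out. The submitters' processing notes list STAR 2.5, HTSeq 0.6.1 and mm10 without saying how they were set. How strand and multiply mapped reads were treated is not stated. No line of the table lacked a gene name. Library numbers are those of the table's columns; for some columns the labels give the group but not which sample it is.

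The counts of the 6 libraries were fitted with edgeR 4.0.16 in R 4.3.3 (TMM, filterByExpr, robust quasi-likelihood; terms for group and round), and calls needed an adjusted p (Benjamini-Hochberg, over all tested genes) under 0.05. Levels are TMM-normalised CPM, with the factors of all 12 libraries. Intervals are 95% intervals of the fitted log2 fold change. Alternatives were RLE size factors, no filter, DESeq2 1.42.0, limma-trend (limma 3.58.1, prior count 2), the 12 libraries, the 10 without those of high mitochondrial share, no round term, the replicate block, each round alone, no mitochondrial genes, and each library left out. The fitting step was tested on simulated data with known changes.

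Same-numbered libraries of RH MET and WT VEH had correlated deviations from their group means. The r across genes was 0.14, 0.16 and 0.43 for numbers 1, 2 and 3. Number 3 is also the round 2 library, and the difference between numbers 1 and 2 had an r of 0.01 between the groups. These values give no ground for pairing by number beyond round. The replicate block is given only as an alternative beside the count of calls. Replicates differed by more than counting error.

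The comparison, the gene lists and the rules were chosen with earlier results of these data known. Named genes were called genes, then those of smallest p up to 10 per direction, from a mean log2 CPM of 1 upward, with no overlap between the groups, the same sign in both rounds and no clone, pseudogene, histone or antigen receptor name. The called members of each list, or up to 2 of smallest p, and Dnmt3a, Kit, Ly6a and Slc15a2 were added. Values of other list members are shown by family or role and were chosen after they were seen. Lists are described by counts and medians, with no set test. Promoter windows are from RefSeq, GRCm38.p6, matched by symbol.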

Additional observations from a re-analysis of the deposited data

How the results depend on the processing

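Calls were 1 higher and 8 lower. They were 66 higher and 106 lower with no filter (25856 genes), 16 and 61 by DESeq2, 8 and 41 with the replicate block, 0 and 1 with no round term, and 0 and 0 with all 12 libraries. Genes called lower were 15 with RLE size factors, 16 by limma-trend, 15 without mitochondrial genome genes, 2 in the fit of 10 libraries and 1 within round 1. Leaving out 1 library gave 1 to 5 genes called higher and 1 to 27 lower. The 9 calls were all kept under RLE, no filter, DESeq2, limma-trend, the replicate block and without mitochondrial genome genes. The share of genes with an interval inside 1 log2 unit, 76.7%, was 43.7% with no filter, 65.9% with 12 libraries, 71.9% with 10, 72.3% with no round term, 68.4% within round 1, 40.9% by DESeq2, 78.6% by limma-trend and 66.5% to 73.3% with 1 library left out. The immediate early median, −0.47, was −0.23 within round 1, −0.98 in round 2 alone (1 library against 1, log2 CPM scaled on the 6 libraries) and −0.58 to −0.23 with 1 library left out. The NF-kB median, −0.13, was negative in all fits, at −0.06 within round 1, −0.21 in round 2 alone and −0.19 to −0.06 with 1 library left out. The ratio of distances, 1.03, was 0.918 to 1.05. Fits with fewer libraries, and the unfiltered fit with more low genes, have wider intervals by construction. The DESeq2 share is over the same 25856 genes as the unfiltered fit, so it too holds more low genes. The cause of the other shifts was not tested. None of the 9 called genes changed its sign in any fit. Depth limits genes under 1 log2 CPM most, and p-values rest on 3 libraries per group and the labels give 2 animals per treatment group.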
